A study of Homo sapiens with 9 samples.

Results

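The 41 genes described here belong to the programme of NRF2, the transcription factor that switches on antioxidant and xenobiotic defence. They were taken by symbol from the deposited table of read counts, and all 41 symbols were found among its 26364 gene names. The rows were read by symbol and not by their values, although the list itself was drawn up with earlier results of these data known. The cells were A549, a human lung adenocarcinoma line, in 4 groups. The control group (2 libraries) was labelled as wild type. The *LA* group (2 libraries) carried the *LOC388942-ALK* fusion, which had been made with CRISPR/Cas9 and guides against both loci and, by the methods, grown as monoclonal strains from single cells. The sgScr group (3 libraries) was *LA* cells given a scramble guide, and the sg*FOS* group (2 libraries) was *LA* cells given a guide against *FOS*. All groups but the control therefore carried the fusion. The labels do not say how many clones the libraries came from, which *FOS* guide was used, nor whether replicates came from separate cultures, so the p-values below measure only the spread between these libraries, which may be technical.

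NRF2, encoded by *NFE2L2*, is held at a low level by KEAP1, an adaptor that hands it to a ubiquitin ligase for destruction. Electrophiles or oxidants that modify KEAP1 let NRF2 build up, pair with small MAF proteins and bind antioxidant response elements near its target genes. A549 cells carry an inactivating *KEAP1* mutation, and their NRF2 is known to be constitutively active. The targets include enzymes that make glutathione, reduce thioredoxin, supply NADPH, remove quinones and aldehydes, and handle heme and iron.

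The core of the antioxidant response element was searched for in the 250 bases before the start of each gene, as TGACNNNGC on both strands. RefSeq promoters on GRCh38.p14 were found for 31 of the 41 genes, with 43 start sites. The core stood in 10 of these 43 promoters (23.3%, from 9 genes) and in 10.9% of all 35116 promoters. The AP-1 motif TGANTCA, the kind bound by FOS and JUN dimers, stood in 4 of 43 (9.3%) against 6.57% of all promoters. The joined form TGANTCAGC contains an AP-1 motif and overlaps the antioxidant core when its free base is a C. It stood in 2 of the 43 (4.65%), those of *ME1* and *OSGIN1*, and in 1.11% of all promoters. A match is a description of letters and not a measured binding site. Promoters of 4 genes are printed 5′ to 3′ on the strand of the gene because they hold the joined form (*ME1*, *OSGIN1*) or belong to an NRF2 regulator and a classical target (*KEAP1*, *GCLM*). For *KEAP1*, a start was printed only if its window held a match to TGACNNNGC, so its matches do not describe every start of that gene. Capitals mark a match to TGACNNNGC or TGANTCAGC on either strand.
ME1 (chr6:83431052-83431301, minus strand): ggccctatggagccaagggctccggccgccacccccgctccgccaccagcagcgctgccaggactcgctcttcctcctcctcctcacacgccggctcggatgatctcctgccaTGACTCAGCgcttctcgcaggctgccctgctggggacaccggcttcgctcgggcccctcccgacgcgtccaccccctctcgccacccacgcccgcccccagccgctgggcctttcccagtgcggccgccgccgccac
OSGIN1 (chr16:83952990-83953239, plus strand): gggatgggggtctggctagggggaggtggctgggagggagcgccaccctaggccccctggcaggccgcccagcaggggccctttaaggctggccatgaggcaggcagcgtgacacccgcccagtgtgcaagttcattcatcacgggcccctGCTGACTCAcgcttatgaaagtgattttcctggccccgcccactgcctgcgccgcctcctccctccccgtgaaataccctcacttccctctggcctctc
GCLM (chr1:93909431-93909680, minus strand): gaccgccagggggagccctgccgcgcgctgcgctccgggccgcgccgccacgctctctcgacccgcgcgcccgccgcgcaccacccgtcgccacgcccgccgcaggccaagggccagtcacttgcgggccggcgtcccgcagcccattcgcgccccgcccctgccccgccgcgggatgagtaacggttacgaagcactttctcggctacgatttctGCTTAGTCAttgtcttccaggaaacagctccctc
KEAP1 (chr19:10502772-10503021, minus strand): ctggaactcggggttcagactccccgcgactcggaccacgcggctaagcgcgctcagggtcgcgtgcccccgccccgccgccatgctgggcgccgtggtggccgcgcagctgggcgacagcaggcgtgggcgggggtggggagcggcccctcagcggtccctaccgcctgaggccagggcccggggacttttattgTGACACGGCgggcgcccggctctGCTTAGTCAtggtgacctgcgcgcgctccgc
The *AKR1C1* and *AKR1C2* promoters are shown because these neighbouring genes are near copies of each other. Neither holds a match to the motifs, so neither has capitals.
AKR1C1 (chr10:4963165-4963414, plus strand): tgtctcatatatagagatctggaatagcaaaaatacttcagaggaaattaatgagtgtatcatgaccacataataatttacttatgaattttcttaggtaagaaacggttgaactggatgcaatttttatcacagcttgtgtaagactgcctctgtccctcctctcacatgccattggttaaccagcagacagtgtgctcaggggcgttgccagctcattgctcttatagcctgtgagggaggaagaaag
AKR1C2 (chr10:5003858-5004107, minus strand): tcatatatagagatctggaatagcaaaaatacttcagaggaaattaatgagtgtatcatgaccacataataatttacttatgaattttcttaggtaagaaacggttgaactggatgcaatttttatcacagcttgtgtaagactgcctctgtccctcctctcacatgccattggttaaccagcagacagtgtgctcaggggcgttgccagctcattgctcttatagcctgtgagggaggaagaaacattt
Laid over each other with a shift of 4 bases, these 2 promoters were identical at 245 of 246 positions (99.6%). Reads of such close paralogs can be shared or split during counting, and the levels of *AKR1C1*, *AKR1C2* and *AKR1C3*, of *AKR1B1* and *AKR1B10*, of *TRIM16* and *TRIM16L*, of *CYP4F3* and *CYP4F11*, and of the ferritin genes with their pseudogenes are uncertain for that reason.

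Total counts ranged from 14507228 to 20456341 per library. *FOS*, the gene targeted by the guides, was at 10.8 and 9.14 CPM (read counts relative to library size after TMM normalization) in the control libraries and at 334 and 92.8 CPM in the *LA* libraries. It was at 199.7, 196 and 203 CPM with the scramble guide and at 68.3 and 74.1 CPM with the *FOS* guide, so the 2 guide groups did not overlap. The control libraries differed from each other far more than the guide libraries did: the median absolute difference over the 41 genes was 0.490 on the log2 scale between the 2 controls, 0.354 between the 2 *LA* libraries, 0.0306 to 0.0604 between sgScr libraries and 0.0358 between sg*FOS* libraries. Epithelial keratins were abundant, with *KRT8* at 2871 to 10271 CPM. The lung lineage markers *NKX2-1*, *SFTPB*, *SFTPC* and *SCGB1A1* stayed at or below 0.335 CPM, so the labelled lung origin is not visible in them. Of the 5 immune markers, *PTPRC* and *CD3E* had 0 counts in every library, which allows up to 3 counts in each. The others were counted: *CD68* at 23.5 to 46.6 CPM, *CD14* at 8.12 to 42.6 CPM and *LYZ* at 0.632 CPM or less. The summed level of the 7 epithelial markers was 13574 to 24653 CPM in the controls, 7863 to 12954 CPM in *LA* and 6970 to 8509 CPM in the guide groups. Most of this sum is *KRT8*, *KRT18* and *KRT7*. *CDH1* went the other way, at 18.5 and 21.9 CPM in the controls, 98.9 and 101 CPM in *LA* and 68.9 to 70.9 CPM in the guide groups. *EPCAM* and *CLDN4* were at or below 13.1 CPM. The part of these markers in the results below was not tested.

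**Figure D1:**
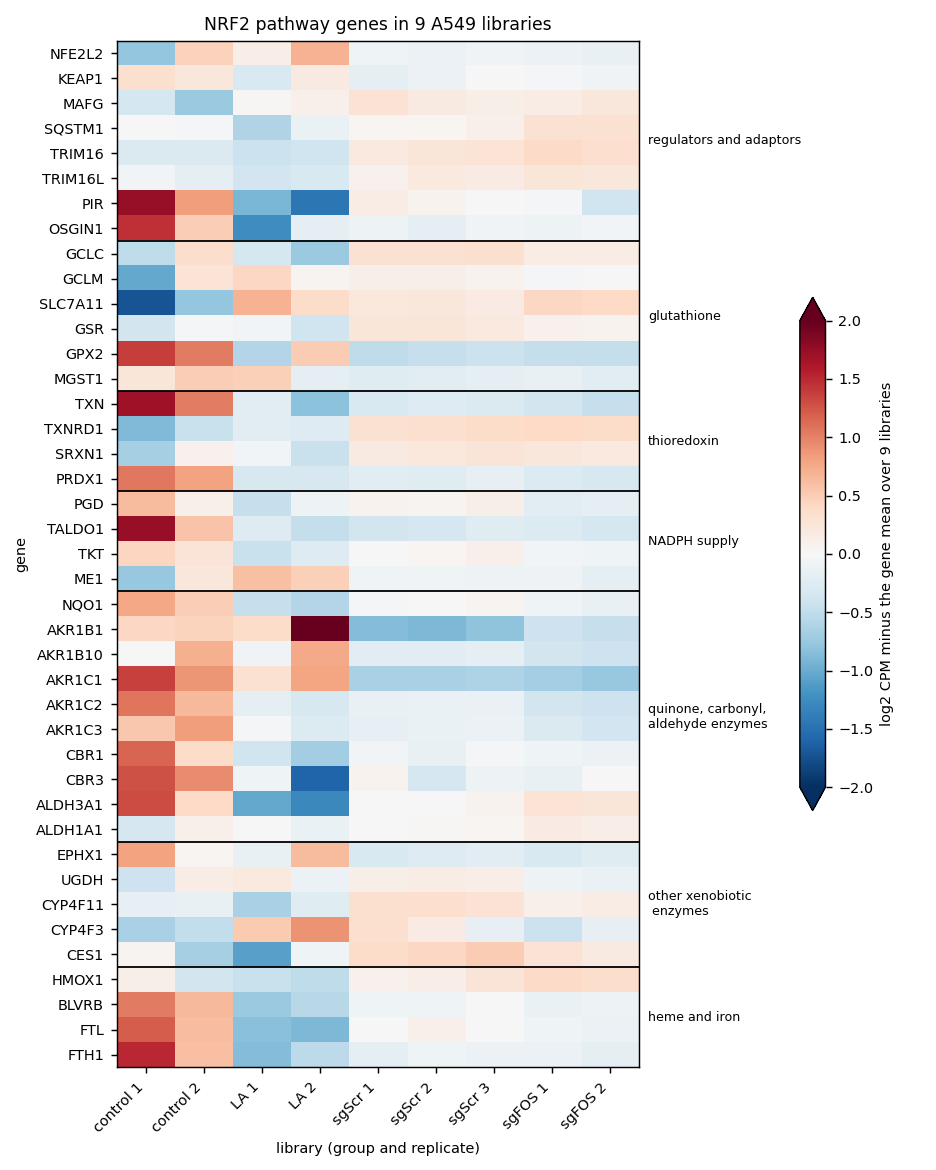
Level of each of the 41 genes (rows, grouped by role) in each of the 9 libraries (columns), as log2 CPM minus the mean of that gene over the 9 libraries; colours stop at 2 in either direction. The control and *LA* columns differ within their groups, while the 5 columns of the guide groups are nearly alike.

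The programme took a large share of the RNA in all groups. The 41 genes held 7.371% and 7.363% of the counts in the control libraries, 4.676% and 5.656% in *LA*, 5.287%, 5.376% and 5.349% in sgScr, and 5.235% and 5.158% in sg*FOS*. Both control libraries were above all 7 fusion libraries. This separation rested on the ferritin genes *FTL* and *FTH1*. They held 2.863% and 2.154% of the counts in the controls, 0.8519% and 0.9147% in *LA*, and 1.328% to 1.493% in the guide groups. With both left out, the share in LA replicate 2 was above that in control replicate 1. Per kilobase of transcript, *FTL*, the light chain of the iron store ferritin, ranked 1 of 14363 genes in each group. *FTH1*, the heavy chain, ranked between 2 and 8. *ALDH1A1*, which oxidizes retinal and other aldehydes, ranked 29 in the controls and 4 in the other 3 groups. *AKR1B10*, a reductase of retinal and lipid aldehydes, ranked between 3 and 17. The lowest members per kilobase were *PIR*, *CBR3* and *CYP4F3*, with ranks from 4935 to 10901. *NFE2L2* itself ranked between 917 and 1884.

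Control and *LA* cells were compared to ask which of these genes differed in fusion cells. The genes called lower in *LA* cells included *PIR*, *ALDH3A1*, *TXN*, both ferritin chains and the carbonyl reductase genes *CBR1* and *CBR3*, while the cystine transporter gene *SLC7A11* and *CYP4F3* were higher. Most of the 41 were not called in either direction. With edgeR's quasi-likelihood test and Benjamini-Hochberg adjustment over 14425 genes, 11 of the 41 were called lower and 2 higher at an adjusted p under 0.05. Of all genes tested, 9.94% were called lower and 9.57% higher. The median log2 fold change was -0.36 over the 41 genes and 0.044 over all genes. The 2 groups did not overlap for 24 members that were lower and 5 that were higher, against 30% and 33.8% of all genes. In bulk RNA, fewer cells that express a gene and less of its RNA per cell cannot be told apart.

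The counts of calls depended on single libraries. Leaving out control replicate 1 gave 6 lower and 0 higher calls, control replicate 2 gave 15 and 5, LA replicate 1 gave 2 and 0, and LA replicate 2 gave 0 and 0. Without LA replicate 2, 8 members were lower and 1 higher at an unadjusted p under 0.05 in edgeR; without LA replicate 1, 3 were higher at that level, and without control replicate 1, 2 were. With 1 library left in an arm, that library is assumed to vary like the other group. The calls over all genes moved with each of these omissions too, so the changing counts are not particular to the 41 genes. In these fits the median log2 fold change was -0.60 to -0.38 over the 41 genes and 0.0029 to 0.055 over all genes. None of the 13 calls held in all 4 of these fits, and *PIR* alone held in 3. The fold change in this comparison also followed transcript length over all genes (Spearman's rho = 0.579 across 13982 genes, which are not independent replicates). The log2 difference between the controls, replicate 2 minus replicate 1, also followed length, with a rho of 0.348. The 11 members called lower had a median transcript length of 1199 bases, the 2 called higher 7349 bases and the 28 not called 2702.5 bases. With a correction for length and GC content, 5 members were called lower and 1 higher, against 4.22% and 5.31% of the 13982 genes with a length, and 2 of the 11 lower calls were among them. The corrected median was -0.13 over the 41 genes and 0.037 over all genes.

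**Figure D2:**
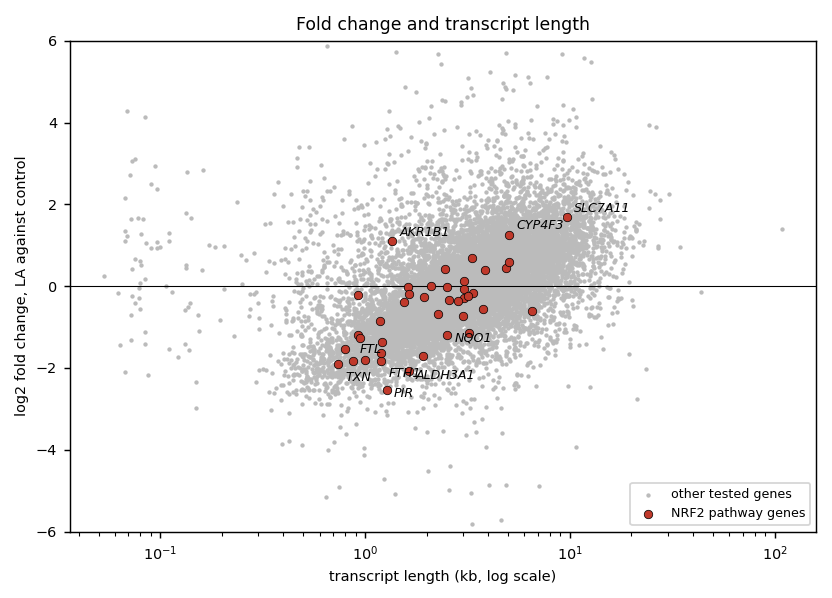
Log2 fold change of *LA* against control (vertical axis) by transcript length in kilobases (horizontal log axis) for the tested genes with a length, the 41 NRF2 pathway genes in red; 33 genes beyond 6 in either direction are not drawn. *TXN*, *FTL* and *FTH1* lie among the short transcripts with low values, and *SLC7A11* among the long ones with high values.

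Among the regulators, *NFE2L2* was at 68.3 and 161 CPM in the controls and 128 and 188 CPM in *LA*, and the groups overlapped. Its log2 fold change was 0.43 ± 0.44 (SE; adjusted p = 0.518). The direction turned without control replicate 1, at -0.099, while the omissions of single libraries reached 1.12 at the other end. *KEAP1* was at 124 and 116 CPM in the controls and 80.9 and 113 CPM in *LA*. Both *LA* libraries were lower, but the log2 fold change of -0.34 ± 0.39 (SE; adjusted p = 0.578) did not pass, and it was 0.030 with the length and GC correction. *PIR* encodes pirin, an iron-binding nuclear protein. It was at 17.9 and 9.56 CPM in the controls against 2.82 and 1.96 CPM in *LA*, a log2 fold change of -2.53 ± 0.55 (SE; adjusted p = 0.00322). This was the largest decrease among the 41 genes, at low levels throughout, and it remained with the correction, at -1.70 ± 0.41 (SE; adjusted p = 0.0336). *OSGIN1*, an oxidative stress-induced growth inhibitor, was at 246 and 126 CPM against 37.7 and 78.1 CPM, lower at a log2 fold change of -1.71 ± 0.45 (SE; adjusted p = 0.0103). Its corrected value was -0.85 ± 0.27 (SE; adjusted p = 0.0736). *MAFG*, a small MAF partner of NRF2, *SQSTM1*, the autophagy adaptor that binds KEAP1, and the ubiquitin ligase gene *TRIM16* with its paralog *TRIM16L* were not called.

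In the glutathione group, 1 of 6 genes was called. *SLC7A11* encodes the transporter that imports the cystine from which glutathione is made. It was at 123 and 236 CPM in the controls and 657 and 524 CPM in *LA*. Both *LA* libraries were above both controls, with a log2 fold change of 1.69 ± 0.44 (SE; adjusted p = 0.0103). Its transcript is the longest of the 41 at 9645 bases, and the corrected value was 0.69 ± 0.24 (SE; adjusted p = 0.0955). The genes of the 2 subunits of glutamate cysteine ligase, *GCLC* and *GCLM*, overlapped between the groups, as did *GSR*, glutathione reductase, and *MGST1*, a microsomal glutathione transferase. *GPX2*, a glutathione peroxidase, was at 1125 and 878 CPM in the controls and 287 and 611 CPM in *LA*, without overlap, and was not called.

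In the thioredoxin group, *TXN*, thioredoxin itself, was at 2287 and 1441 CPM in the controls and 604 and 399 CPM in *LA*, a log2 fold change of -1.91 ± 0.46 (SE; adjusted p = 0.00583). *PRDX1*, a peroxiredoxin that uses thioredoxin, was at 2251 and 1878 CPM against 867 and 863 CPM, a log2 fold change of -1.28 ± 0.43 (SE; adjusted p = 0.0398). Both were lower in each *LA* library than in each control. Neither was called with the correction, where the values were -0.92 ± 0.32 (SE; adjusted p = 0.0950) and -0.23 ± 0.26 (SE; adjusted p = 0.614). *TXNRD1*, the reductase of thioredoxin, was at 1002 and 1356 CPM in the controls and 1587 and 1548 CPM in *LA*. It was the one gene of this group with both *LA* libraries above both controls, and it was not called. Among the genes that supply NADPH, *TALDO1*, transaldolase, was at 1319 and 586 CPM in the controls and 332 and 283 CPM in *LA*, a log2 fold change of -1.65 ± 0.45 (SE; adjusted p = 0.0139). The controls lay above *LA* but differed from each other by more than a doubling of the lower one. The corrected value was -0.58 ± 0.29 (SE; adjusted p = 0.232). *PGD* and *TKT*, of the pentose phosphate pathway, and *ME1*, malic enzyme, were not called.

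Among the quinone, carbonyl and aldehyde enzymes, 3 of 10 were called lower and none higher. *ALDH3A1*, an aldehyde dehydrogenase, was at 6615 and 3544 CPM in the controls and 1325 and 1094 CPM in *LA*, a log2 fold change of -2.09 ± 0.47 (SE; adjusted p = 0.00439). It was, with *PIR*, called in both the uncorrected and the corrected fit, where it was -1.15 ± 0.31 (SE; adjusted p = 0.0460). The carbonyl reductase genes *CBR1*, at 184 and 106 CPM against 62.2 and 50.7 CPM, and *CBR3*, at 14.4 and 11.5 CPM against 5.59 and 1.96 CPM, were lower at a log2 fold change of -1.37 ± 0.41 (SE; adjusted p = 0.0221) and -1.80 ± 0.55 (SE; adjusted p = 0.0244). Their corrected values, -0.33 ± 0.25 (SE; adjusted p = 0.415) and -0.55 ± 0.51 (SE; adjusted p = 0.519), did not pass. *NQO1*, the quinone reductase often used as a readout of NRF2, was at 3406 and 2791 CPM in the controls and 1437 and 1323 CPM in *LA*. The groups did not overlap, yet the log2 fold change of -1.19 ± 0.44 (SE; adjusted p = 0.0579) missed the threshold, and it passed with the correction at -1.15 ± 0.31 (SE; adjusted p = 0.0457).

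The *AKR1C* genes encode hydroxysteroid dehydrogenases that also reduce carbonyl compounds. Their summed share of counts was 1.197% and 1.259% in the controls, 0.7813% and 0.7691% in *LA*. *AKR1C1* was at 2905 and 2067 CPM in the controls and 1388 and 1928 CPM in *LA*, and *AKR1C2* at 8684 and 6507 CPM and 3607 and 3311 CPM. Neither overlapped and neither was called, at -0.61 ± 0.44 (SE; adjusted p = 0.343) and -1.16 ± 0.46 (SE; adjusted p = 0.0743) on the log2 scale, but both were called lower with the correction, at -1.47 ± 0.38 (SE; adjusted p = 0.0431) and -1.42 ± 0.37 (SE; adjusted p = 0.0403). The canonical *AKR1C1* transcript is 6543 bases long against 1186 for *AKR1C3*, and its corrected value rests on that length. *AKR1B1*, aldose reductase, was at 2347 and 2399 CPM in the controls but 2269 and 8204 CPM in *LA*. Only LA replicate 2 was high. The log2 fold change of 1.11 ± 0.51 (SE; adjusted p = 0.129) did not pass, and the corrected value did, at 1.94 ± 0.51 (SE; adjusted p = 0.0431). Without LA replicate 2 the uncorrected value was -0.062, so the difference rests on that library.

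In the heme and iron group, 3 of 4 genes were called lower. *FTL* was at 20540.5 and 13636 CPM in the controls and 5010.2 and 4797 CPM in *LA*. Its log2 fold change was -1.82 ± 0.48 (SE; adjusted p = 0.0105), a 3.53-fold difference. *FTH1* was at 15291 and 8203 CPM and 2960.04 and 3739 CPM, with a log2 fold change of -1.83 ± 0.48 (SE; adjusted p = 0.0108). Together the ferritin chains held 2.863% and 2.154% of control counts and 0.8519% and 0.9147% of *LA* counts, and the groups stood well apart. *BLVRB*, a biliverdin and flavin reductase, was at 490.02 and 372 CPM and 143 and 161 CPM, with a log2 fold change of -1.52 ± 0.41 (SE; adjusted p = 0.0123). With the length and GC correction none of the 3 was called, at -0.49 ± 0.30 (SE; adjusted p = 0.318) for *FTL*, -0.87 ± 0.33 (SE; adjusted p = 0.121) for *FTH1* and -0.057 ± 0.28 (SE; adjusted p = 0.915) for *BLVRB*. *HMOX1*, the inducible heme oxygenase, was at 152 and 108 CPM and 103 and 98.5 CPM and was not called. Of the other xenobiotic enzymes, *CYP4F3*, a hydroxylase of leukotrienes and fatty acids, was at 18.2 and 20.2 CPM in the controls and 40.6 and 52.9 CPM in *LA*. It was higher at a log2 fold change of 1.25 ± 0.42 (SE; adjusted p = 0.0370), and its corrected value was 0.69 ± 0.27 (SE; adjusted p = 0.133).

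**Figure D3:**
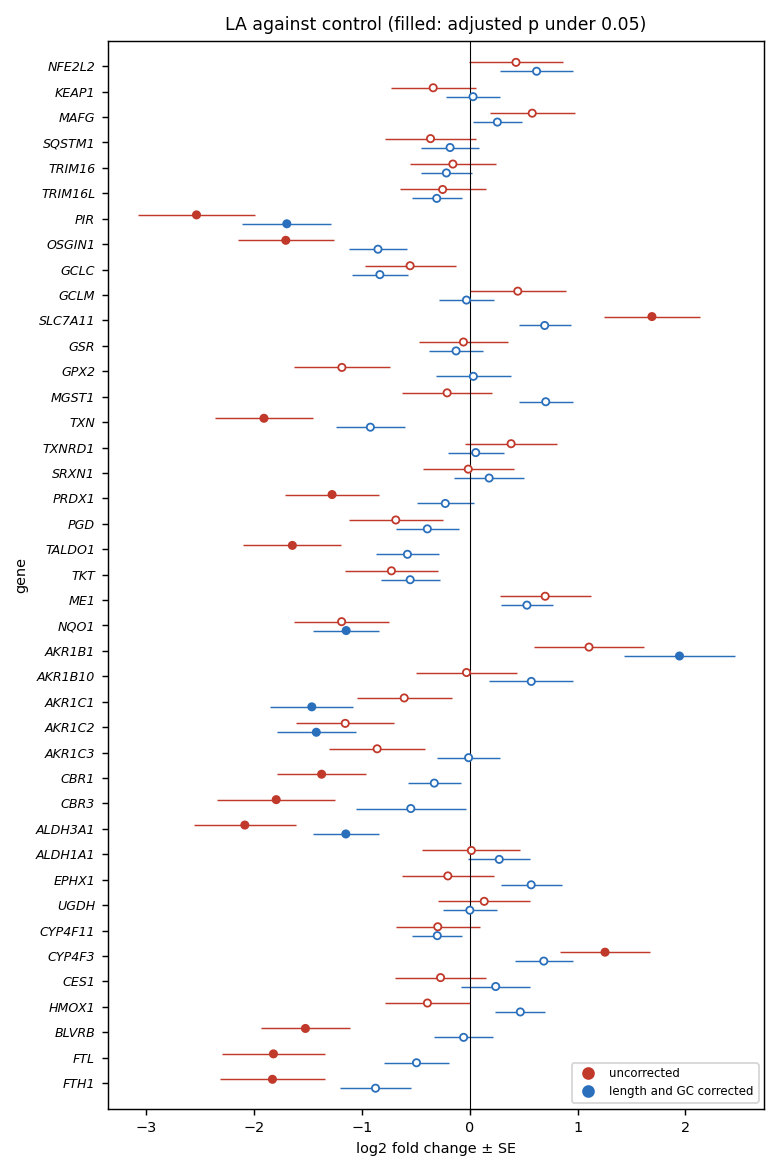
Log2 fold change ± SE of each of the 41 genes in *LA* against control (2 libraries each), uncorrected in red and corrected for transcript length and GC content in blue; filled points have an adjusted p under 0.05 in edgeR. *PIR* and *ALDH3A1* are filled in both, and *FTL*, *FTH1* and *TXN* only without the correction.

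The scramble-guide libraries were compared with the *LA* libraries to see how *LA* cells with a scramble guide differed from *LA* cells without a guide. These libraries may come from another experiment, and the guide and the experiment cannot be told apart. The comparison also shares the *LA* libraries with the one above, so opposite directions in the 2 comparisons are not independent. The iron and heme genes, *ALDH3A1*, *PIR* and several reductases were higher in sgScr, and *AKR1B1*, *AKR1C1* and *ME1* were lower. In edgeR, 14 members were called higher and 3 lower, against 10.6% and 12.3% of 14521 genes. The groups did not overlap for 23 higher and 9 lower members, against 29.5% and 27.2% of all genes. The median log2 fold change was 0.33 over the members and -0.016 over all genes. With the length and GC correction, 16 were called higher and 7 lower, against 14.3% and 14.5% of the genes with a length, of which 12 and 3 were shared with the uncorrected calls.

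Leaving out LA replicate 1 gave 27 higher and 10 lower calls, and leaving out LA replicate 2 gave 22 and 11. Leaving out sgScr replicate 1 gave 2 and 1, replicate 2 gave 1 and 1, and replicate 3 gave 2 and 0. In the last, 5 were lower at an unadjusted p under 0.05 in edgeR. Over all genes, the sgScr omissions called 222, 203 and 171 higher and 310, 252 and 218 lower. Each omission of an *LA* library left 1, assumed to vary like sgScr, and calls over all genes rose as well. The median log2 fold change was then 0.19 and 0.18 over the members and -0.0037 and 0.0025 over all genes. Of the 17 calls, 1 held in all 5 of these fits, that of *ALDH3A1*, and those of *FTL* and *AKR1C1* held in 4. *ALDH3A1* was at 2684, 2683 and 2819 CPM in sgScr, above both *LA* libraries, with a log2 fold change of 1.15 ± 0.11 (SE; adjusted p = 0.00309). *FTL* was at 8998, 9568 and 8936 CPM, a log2 fold change of 0.88 ± 0.094 (SE; adjusted p = 0.00373). Both stayed below the lower of the 2 control libraries. *AKR1C1* was at 715, 714 and 729 CPM, lower than *LA* at a log2 fold change of -1.23 ± 0.14 (SE; adjusted p = 0.00505), and its share of all *AKR1C* counts was 10.78% to 10.91% in sgScr against 18.99% and 26.87% in *LA*. *AKR1B1* was at 968, 947 and 1004 CPM, and its log2 fold change of -2.45 ± 0.48 (SE; adjusted p = 0.0191) again carries the high value of LA replicate 2. Without that library it was -1.24.

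All 4 heme and iron genes were called higher, 3 of them also with the length and GC correction. *HMOX1* was at 148, 153 and 167 CPM, with a log2 fold change of 0.61 ± 0.092 (SE; adjusted p = 0.00949). *BLVRB* was at 225, 224 and 239.99 CPM, a log2 fold change of 0.57 ± 0.094 (SE; adjusted p = 0.0121). *FTH1* was at 4749.97, 5083 and 4993 CPM, a log2 fold change of 0.54 ± 0.13 (SE; adjusted p = 0.0305), and its corrected value was 0.38 ± 0.13 (SE; adjusted p = 0.0779). Each was above both *LA* libraries in all 3 sgScr libraries. Of the regulators, *PIR* was at 5.95, 5.59 and 5.28 CPM, higher at a log2 fold change of 1.21 ± 0.24 (SE; adjusted p = 0.0191), and *TRIM16* at 394, 408 and 416 CPM against 256 and 262 CPM in *LA*, higher at a log2 fold change of 0.63 ± 0.080 (SE; adjusted p = 0.00610). *TRIM16L* was at 327, 353 and 344 CPM against 236 and 249 CPM, higher at a log2 fold change of 0.47 ± 0.084 (SE; adjusted p = 0.0152). *NFE2L2* was at 109.7, 107 and 111 CPM, below both *LA* libraries, and its log2 fold change of -0.56 ± 0.16 (SE; adjusted p = 0.0552) did not pass. *KEAP1* was at 87.7, 91.8 and 99.1 CPM and overlapped with *LA*, at -0.082 ± 0.15 (SE; adjusted p = 0.723); it was 0.017 with the correction and 0.18 without LA replicate 2.

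*GCLC*, the catalytic subunit that sets the rate of glutathione synthesis, was at 337, 335 and 338 CPM in sgScr and 212 and 163 CPM in *LA*, a log2 fold change of 0.82 ± 0.13 (SE; adjusted p = 0.0100). *TXNRD1* was at 2284, 2308 and 2388 CPM, above the *LA* and the control libraries, with a log2 fold change of 0.55 ± 0.083 (SE; adjusted p = 0.00973) against *LA*. The 3 sgScr values of each gene were close together. *NQO1* was at 1946, 1988 and 2054 CPM, a log2 fold change of 0.51 ± 0.088 (SE; adjusted p = 0.0138), and *CBR1* at 78.9, 73.8 and 79.6 CPM, a log2 fold change of 0.44 ± 0.11 (SE; adjusted p = 0.0413). The corrected value of *CBR1*, 0.30 ± 0.11 (SE; adjusted p = 0.0900), did not pass. *TKT*, transketolase, was at 1999.9, 2046 and 2125 CPM against 1449 and 1649 CPM, a log2 fold change of 0.39 ± 0.097 (SE; adjusted p = 0.0370). *NQO1*, *CBR1* and *TKT* were above *LA* and below the controls. *CYP4F11*, a fatty acid hydroxylase, was at 115, 116 and 112 CPM against 58.8 and 77.9 CPM, a log2 fold change of 0.72 ± 0.13 (SE; adjusted p = 0.0167). *ME1* fell, at 160.1, 160.1 and 158 CPM against 259 and 237 CPM, a log2 fold change of -0.66 ± 0.081 (SE; adjusted p = 0.00556).

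**Figure D4:**
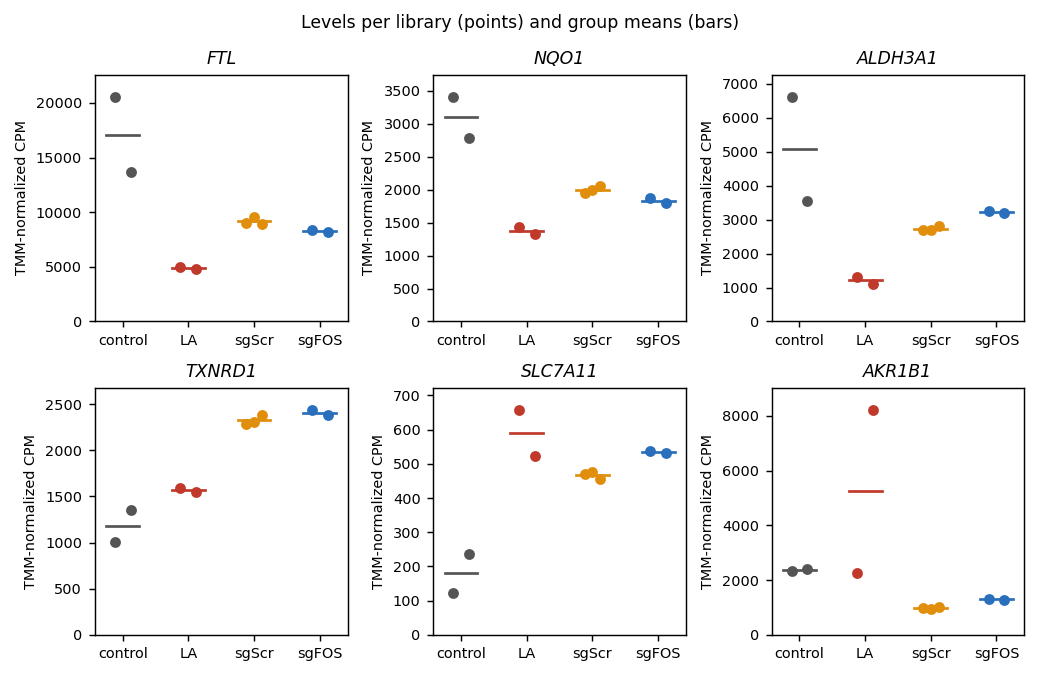
TMM-normalized CPM (vertical axis, from 0) of 6 genes in the 4 groups; each point is a library and each bar a group mean. *FTL*, *NQO1* and *ALDH3A1* were highest in the controls and lowest in *LA*, *SLC7A11* was lowest in the controls, *TXNRD1* was highest in the guide groups, and *AKR1B1* was high in LA replicate 2 only.

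The *FOS* guide was compared with the scramble guide to ask whether the programme changed when *FOS* was edited in *LA* cells. Of the 41 genes, 22 were called different between these 2 sets of libraries, in both directions and by small amounts. The sgScr libraries are the same as in the comparison above. In edgeR, 7 members were called higher and 15 lower, against 12.2% and 10.5% of 14196 genes. The groups did not overlap for 8 higher and 19 lower members, against 24% and 24.5% of all genes. The largest called change was 0.43 and the smallest 0.11 on the log2 scale, and the medians were -0.039 over the members and -0.0015 over all genes. With the length and GC correction, 8 were called higher and 13 lower, against 10.9% and 10.2% of the genes with a length, of which 7 and 12 were shared with the uncorrected calls. None reached the study's threshold of a log2 fold change of 0.5, where 3.73% of all genes were higher and 2.03% lower. Replicates in these 2 groups were nearly alike, with a biological coefficient of variation of 0.0296, against 0.329 in *LA* and control. When all 9 libraries shared an estimate of the spread, edgeR called no gene at all, member or not, and 0 members had an unadjusted p under 0.05. DESeq2 on these 2 groups alone called 7 members higher and 14 lower, and 1075 and 887 of all genes. The calls rest on the small spread of these 5 libraries. Leaving out sgFOS replicate 2 gave 9 lower calls, and 13 of the 22 calls held in all 5 omissions.

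Of the 8 regulators, 2 were called higher and none lower. *NFE2L2* was at 107 and 105 CPM and *KEAP1* at 96.6 and 94.4 CPM with the *FOS* guide, both overlapping with sgScr. Their log2 fold changes were -0.039 ± 0.042 (SE; adjusted p = 0.558) and 0.047 ± 0.047 (SE; adjusted p = 0.527), and both signs turned with the length and GC correction, to 0.0061 and -0.025. *SQSTM1* was at 1400.5 and 1399 CPM against 1164, 1173 and 1214 CPM in sgScr, higher at a log2 fold change of 0.25 ± 0.033 (SE; adjusted p = 3.09e-07). *TRIM16* was at 449 and 439 CPM, higher at a log2 fold change of 0.13 ± 0.035 (SE; adjusted p = 0.00382). *OSGIN1*, whose promoter holds the joined AP-1 motif printed above, was at 83.3 and 86.03 CPM and overlapped with sgScr. *ME1*, the other gene with that joined motif, was at 159 and 150.04 CPM and overlapped as well. The AP-1 motif TGANTCA, without the joined form, also stood in the promoters of *CYP4F3* and *CYP4F11*. Both of these genes were called lower, at a log2 fold change of -0.42 and -0.19. Whether the motif had a part in any of these values was not tested.

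In the glutathione group, *SLC7A11* was at 537 and 533 CPM with the *FOS* guide and 469, 475 and 455 CPM with the scramble guide, higher at a log2 fold change of 0.20 ± 0.034 (SE; adjusted p = 1.53e-05). The synthesis and recycling genes went the other way. *GCLC* was at 303 and 303 CPM, lower at a log2 fold change of -0.15 ± 0.035 (SE; adjusted p = 0.00119), and *GSR* at 517 and 515 CPM against 579, 579 and 557 CPM, lower at a log2 fold change of -0.14 ± 0.034 (SE; adjusted p = 0.00156). *GCLM* was at 265 and 271 CPM against 293, 294 and 282 CPM, lower at a log2 fold change of -0.11 ± 0.036 (SE; adjusted p = 0.0249), a call that held in 1 of the 5 omissions and not with the correction. *TXN* was at 551 and 515 CPM against 569, 588 and 579 CPM, lower at a log2 fold change of -0.12 ± 0.035 (SE; adjusted p = 0.0140); its corrected value was -0.0011. Of the NADPH genes, *PGD*, an NADPH-producing dehydrogenase of the pentose phosphate pathway, was at 1464 and 1486 CPM against 1789.6, 1761 and 1858 CPM. It was lower at a log2 fold change of -0.29 ± 0.034 (SE; adjusted p = 2.43e-08). *TKT* was at 1907 and 1869.9 CPM, lower at a log2 fold change of -0.12 ± 0.034 (SE; adjusted p = 0.00868).

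The carbonyl enzymes split. *AKR1B1* was at 1322 and 1284 CPM with the *FOS* guide, above the 3 sgScr libraries, and its log2 fold change of 0.43 ± 0.034 (SE; adjusted p = 1.28e-12) was the largest in size among the 41 genes. Its neighbour on chromosome 7, *AKR1B10*, was at 3298 and 3202 CPM against 3646, 3705 and 3777 CPM, lower at a log2 fold change of -0.19 ± 0.034 (SE; adjusted p = 4.88e-05). The ratio of *AKR1B10* to *AKR1B1* counts was 2.496 and 2.493 with the *FOS* guide and 3.761 to 3.912 with the scramble guide. It was 1.822 and 2.909 in the controls and 1.800 and 0.8791 in *LA*, and reads shared by these paralogs were not resolved. *AKR1C2* was at 3214 and 3106 CPM against 3747, 3775 and 3787 CPM, lower at a log2 fold change of -0.25 ± 0.033 (SE; adjusted p = 2.55e-07). *AKR1C3* was at 1915 and 1797 CPM against 2092, 2135 and 2168 CPM, lower at a log2 fold change of -0.20 ± 0.034 (SE; adjusted p = 3.45e-05). *NQO1* was at 1875 and 1796 CPM, lower at a log2 fold change of -0.12 ± 0.034 (SE; adjusted p = 0.0105), and was not called with the correction. Both aldehyde dehydrogenases rose: *ALDH3A1* was at 3256 and 3185 CPM, higher at a log2 fold change of 0.24 ± 0.034 (SE; adjusted p = 5.57e-07), and *ALDH1A1* at 7718 and 7550.1 CPM against 6943, 7037 and 7137 CPM, higher at a log2 fold change of 0.12 ± 0.033 (SE; adjusted p = 0.00670).

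Of the 5 other xenobiotic enzymes, 4 fell. *UGDH*, which makes the sugar donor for glucuronidation, was at 646 and 634 CPM against 754, 765 and 759.6 CPM, lower at a log2 fold change of -0.24 ± 0.033 (SE; adjusted p = 4.53e-07). *CYP4F11* was at 98.6 and 102 CPM, lower at a log2 fold change of -0.19 ± 0.042 (SE; adjusted p = 7.80e-04). *CYP4F3* was at 21.1 and 25.2 CPM against 35.4, 31.9 and 25.3 CPM, lower at a log2 fold change of -0.42 ± 0.096 (SE; adjusted p = 0.00126), and the highest sg*FOS* library was close to the lowest sgScr library. *CES1*, a carboxylesterase of drugs and esters, was at 204 and 189 CPM against 215, 222 and 235 CPM, lower at a log2 fold change of -0.18 ± 0.041 (SE; adjusted p = 7.26e-04). *HMOX1* rose, at 182 and 178 CPM and at a log2 fold change of 0.21 ± 0.042 (SE; adjusted p = 2.33e-04). *FTL* fell slightly, at 8379 and 8201 CPM and at a log2 fold change of -0.14 ± 0.035 (SE; adjusted p = 0.00286), while *FTH1* overlapped.

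**Figure D5:**
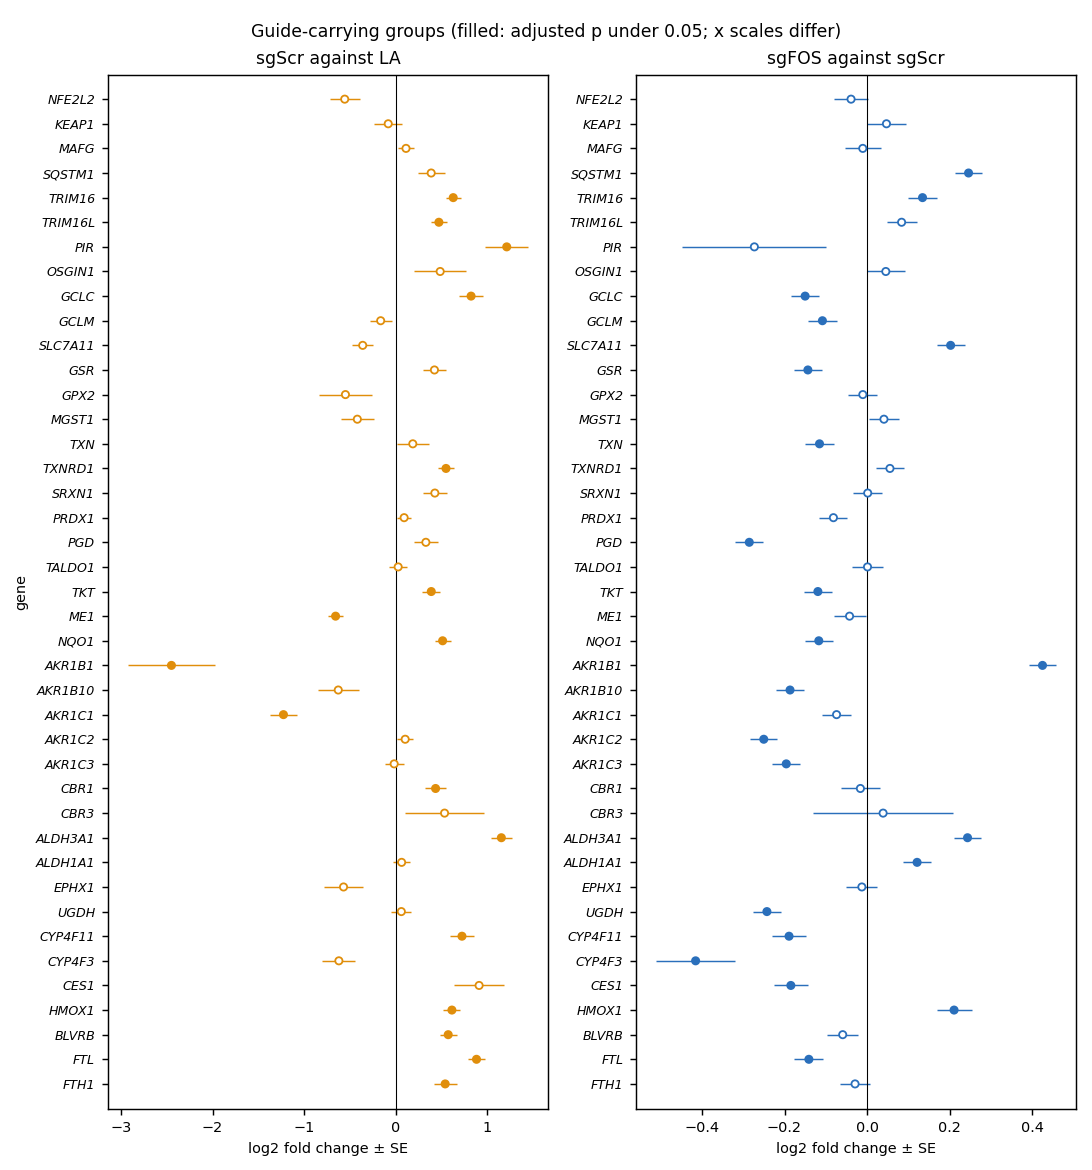
Log2 fold change ± SE of the 41 genes in sgScr against *LA* (left) and sg*FOS* against sgScr (right), with different horizontal scales; filled points have an adjusted p under 0.05 in edgeR. The right panel spans -0.42 to 0.43 and the left panel -2.45 to 1.21.

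Across all 7 fusion libraries and both controls, 18 members were lower in every fusion library, 4 were higher in each and 19 overlapped, against 22% lower and 24.3% higher among 14849 genes. The 4 higher genes were *SLC7A11*, *TXNRD1*, *MAFG* and *CYP4F3*. The 18 lower ones included *FTL*, *FTH1*, *NQO1*, *ALDH3A1*, *TXN*, *PRDX1*, *KEAP1* and the 3 *AKR1C* genes. Their median transcript length was 1205.5 bases, against 5057 for the 4 higher genes and 2528 for those that overlapped. Over all genes the same classes had medians of 1685, 5524.5 and 3094 bases. The 2 control libraries stand behind every one of these values.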

How the data were processed

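RNA of A549 cells was sequenced by the authors as stranded, paired-end mRNA libraries and aligned to hg19 with STAR, version 2.7.10b per the submitters' processing notes. For 9 libraries the authors deposited whole-number read counts per gene that had not been normalized. How reads were assigned to genes (program, annotation, strand) is not given in the sources used here. All columns were used. Groups came from the labels. Counts were tested in R 4.3.3 with edgeR 4.0.16 (TMM, filterByExpr, quasi-likelihood test, Benjamini-Hochberg adjustment over all genes, two-sided), on the libraries of each comparison alone, because the groups may differ in spread. The authors used DESeq2 1.26.0, and DESeq2 1.42.0 was an alternative here. Levels are TMM-normalized CPM computed from the counts. Fold changes are on the log2 scale with edgeR's prior count, and the SE was derived from the fold change and its F value. Transcript length and GC content came from GENCODE canonical transcripts on GRCh37, for all 41 members and all but 2538 of 26364 names, and entered as a loess offset in each library (span 0.5). Promoters came from RefSeq on GRCh38.p14.

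Alternatives were DESeq2's test and its size factors, library size alone, no filter, a mean of at least 50 counts, 1 fit over all 9 libraries, a replicate block, the length and GC correction, the study's threshold (log2 fold change of 0.5 and an unadjusted p under 0.05), and leaving out each library. The fits were tested on simulated counts. Limits for 0 counts (3 counts) cover only counting error, since no molecular identifiers were used. The members and lists were chosen with earlier results of these data known. Values per library were given for *NFE2L2*, *KEAP1*, *NQO1* and each member called without overlap in at least 1 comparison, and *GPX2* was added after its values were seen. Of the related genes, up to 3 per list with the largest called change could be named.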

Additional observations from a re-analysis of the deposited data

How the results depend on the processing

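The calls in *LA* against control rest on 2 libraries a group that differed widely, and those in sg*FOS* against sgScr on small differences between nearly identical libraries. A single fit over all 9 libraries called no gene at all in sg*FOS* against sgScr. In *LA* against control that fit called 3552 of all genes higher and 3247 lower. In *LA* against control, members called higher (2) became 4 with all 9 libraries in a single fit and 1 with the length and GC correction; members called lower (11) became 7 with library size alone, 18 with all 9 libraries and 5 with the length and GC correction. Library size alone moved the median of all genes from 0.044 to 0.33 and that of the members from -0.36 to -0.074. Leaving out a library gave 0 to 5 higher and 0 to 15 lower. In sg*FOS* against sgScr, members called higher (7) and lower (15) both became 0 with all 9 libraries in a single fit and 0 at the study's threshold, and leaving out a library gave 5 to 8 higher and 9 to 15 lower. In sgScr against *LA*, members called higher (14) became 8 with all 9 libraries; those called lower (3) became 7 with DESeq2, 6 with library size alone, 5 without a filter, 7 with the length and GC correction and 7 at the study's threshold. Leaving out a library gave 1 to 27 higher and 0 to 11 lower. Whether replicate numbers pair the samples was not settled. Deviations of libraries with the same number correlated at -0.264 in *LA* and control, where 2 libraries a group give the same value for both numbers. They correlated at -0.143 and 0.0246 in the guide groups and at -0.0026 and -0.0284 in sgScr and *LA*. With the replicate block, *LA* against control gave 1 member higher, also with the length and GC correction, and sgScr against *LA* gave 5 higher, or 6 with that correction; the block moved no other count of members by over 1.5 times. Of the 135 related genes, the block gave 3 higher and 10 lower in *LA* against control and 6 and 6 in sgScr against *LA*. A crossed pairing of *LA* and control, chosen after seeing the data, gave 2 members higher and 12 lower, and 1977 and 1901 of all genes. Directions turned in *LA* against control for *NFE2L2* without control replicate 1 (omissions gave -0.099 to 1.12), *KEAP1* with the length and GC correction (0.0304, or 0.0447 with the block) and *AKR1B1* without LA replicate 2 (omissions gave -0.0615 to 1.73). In sg*FOS* against sgScr they turned with the correction for *NFE2L2* (0.0061, or 0.0218 with the block), *KEAP1* (-0.0253) and, with the block, *TXN* (0.0115). In sgScr against *LA* they turned for *KEAP1* with the correction (0.0168) and without LA replicate 2 (omissions gave -0.286 to 0.179). The causes were not tested.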

Other observations

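A further 135 genes of the same pathways, not among the 41, were read in the same fits. In *LA* against control, 11 of 131 tested were called higher (8.4%) and 19 lower (14.5%), against 9.57% and 9.94% of all genes. These counts rested on single libraries: they were 2 and 12 without control replicate 1, 20 and 33 without control replicate 2, 2 and 1 without LA replicate 1, and 0 and 1 without LA replicate 2, where 5 were higher at an unadjusted p under 0.05 in edgeR. With the length and GC correction 4 were called higher and 1 lower. The lower ones included *GSTP1*, a glutathione transferase, at -2.21 ± 0.45 (SE; adjusted p = 0.00259) on the log2 scale in edgeR, *GPX4*, the peroxidase of membrane lipids, at -2.07 ± 0.43 (SE; adjusted p = 0.00278), and *SULT2B1*, a sulfotransferase, at -2.90 ± 0.45 (SE; adjusted p = 3.70e-04). Of 17 genes of NRF2 partners and turnover, 6 were called higher and 1 lower. The coactivator genes *EP300* and *CREBBP* were higher, at 2.19 ± 0.41 (SE; adjusted p = 0.00147) and 1.48 ± 0.41 (SE; adjusted p = 0.0132). The lower one was *RBX1*, at -1.74 ± 0.42 (SE; adjusted p = 0.00598). *SLC40A1*, the iron exporter ferroportin, was higher by 1.46 ± 0.47 (SE; adjusted p = 0.0313). With the length and GC correction, *SULT2B1* (-1.66, adjusted p = 0.0102), *EP300* and *SLC40A1* were still called and *GSTP1*, *GPX4*, *CREBBP* and *RBX1* were not.

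In sg*FOS* against sgScr, 26 of 126 were called higher (20.6%) and 16 lower (12.7%), against 12.2% and 10.5% of all genes. With all 9 libraries in a single fit none was called by edgeR, and 3 were higher and 1 lower at an unadjusted p under 0.05, while DESeq2 on these 2 groups called 15 higher and 11 lower. Without sgFOS replicate 1 the counts were 13 and 8, without sgFOS replicate 2 they were 17 and 7, and without sgScr replicate 1 they were 17 and 13. The stress-inducible *SESN2* and *SESN1* were higher by 0.76 ± 0.10 (SE; adjusted p = 2.47e-07) and 0.69 ± 0.11 (SE; adjusted p = 1.12e-05) in edgeR, *GPX1*, a glutathione peroxidase, by 0.56 ± 0.046 (SE; adjusted p = 3.13e-12), and *SOD2*, the mitochondrial superoxide dismutase, by 0.43 ± 0.043 (SE; adjusted p = 3.66e-10). *RPIA*, of the pentose phosphate pathway, was lower at -0.39 ± 0.084 (SE; adjusted p = 4.85e-04). In sgScr against *LA*, 24 of 129 were called higher (18.6%) and 13 lower (10.1%), against 10.6% and 12.3% of all genes. These counts were 60 and 40 without LA replicate 1, 52 and 29 without LA replicate 2, 2 and 3 without sgScr replicate 1, 2 and 1 without sgScr replicate 2, and 2 and 2 without sgScr replicate 3. Among the genes called were *PRDX2*, a peroxiredoxin, at -2.50 ± 0.43 (SE; adjusted p = 0.0135) and *SESN3* at 1.06 ± 0.21 (SE; adjusted p = 0.0191).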
